A study of Mus musculus with 11 samples.

Results

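A set of 8 genes, listed as specific to the inner hair cells of the mouse cochlea, was followed across development, namely Shtn1, Dlk2, Fam19a3, Ppm1j, Draxin, Heg1, Cd24a and Ormdl3. They are 8 of the 24898 genes in the 4 deposited tables, and all 8 had a row in each table. The list was drawn up from the difference between inner and outer hair cells in these same cells, so the values of that difference are given as a description and carry no test. The data were single-cell RNA-seq libraries (10x Chromium, which counts unique molecular identifiers, UMIs, at the 3′ ends of transcripts) of single cells prepared from the cochlear duct floor. All mice were wild-type CD1, and each library pooled the cochleae of several animals of either sex. There were 2 libraries at embryonic day 14 (E14), 3 at E16, 4 at postnatal day 1 (P1) and 2 at P7, the last labelled replicates 4 and 5. Libraries of one age are separate collections according to the study's methods, and the library was the unit of every test.

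The organ of Corti holds a single row of inner hair cells (IHCs), which pass the sound signal to the auditory nerve, and rows of outer hair cells (OHCs), which amplify it mechanically. Around them lie supporting cells such as the inner phalangeal, pillar and Deiters cells, and on the medial side the transient epithelium of Kölliker's organ (KO). The 8 genes encode secreted proteins (Fam19a3, a neurokine of the TAFA family, and Draxin, an axon guidance cue that binds netrin and its receptors), proteins of the cell surface (Dlk2, a non-canonical relative of the Notch ligands, Heg1, a transmembrane protein that anchors the cerebral cavernous malformation complex, and Cd24a, a small glycosylated protein held by a lipid anchor) and proteins inside the cell (Shtn1, or shootin1, which couples actin flow to adhesion in growth cones, Ppm1j, a phosphatase of the PPM family, and Ormdl3, a brake on serine palmitoyltransferase and so on sphingolipid synthesis).

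Hair cells were taken as cells with at least 1 UMI of Myo6 and at least 2 of Ccer2, and were called IHCs when they also held at least 1 UMI of Fgf8 and OHCs when they held none. This gate gave 29 to 64 IHCs and 102 to 192 OHCs per library at E16, and 33 to 64 IHCs and 134 to 388 OHCs at P1. At P7 it gave only 6 and 12 IHCs and 9 and 8 OHCs. The mean level of Ccer2 in the gated cells was 7708 UMIs per 1e+06 UMIs of a cell (CPM) in IHCs and 8221 CPM in OHCs at P1, and 539 CPM and 382 CPM at P7, a description only, as the gate itself used Ccer2. Because the gate returned so few cells at P7, a broader gate was added after the data had been seen, which took cells with at least 6 of 8 other hair cell genes (Pou4f3, Pvalb, Lhfpl5, Cib2, Acbd7, Smpx, Espn, Myo7a) and split them by Fgf8 in the same way. It gave 40 and 41 IHCs and 82 and 102 OHCs at P7. Below, the first is called the rule gate and the second the marker list gate, and values are from the rule gate unless stated. All levels are the mean over the cells of a class of each cell's CPM, per library.

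The gates were checked on genes outside them. The summed level of 8 other IHC genes (among them Otof, Slc17a8 and Tbx2) ranged over the libraries from 2244 to 3524 CPM in IHCs and from 512 to 716 CPM in OHCs at P1, and from 5542 to 6141 CPM and 1382 to 1437 CPM at P7. The summed level of 13 OHC genes ranged from 139 to 229 CPM in IHCs and from 651 to 956 CPM in OHCs at P1, and at P7 from 1040 to 1415 CPM and 7157 to 11349 CPM. At E16 the gated IHCs held the IHC genes at 862 to 1003 CPM and the OHC genes at 139 to 171 CPM. They also held 8 KO markers at 1233 to 1387 CPM. The sums of E16 OHCs are not given here. Slc26a5, which encodes the OHC motor protein prestin, was at 0 in the gated IHCs of every age and also in the gated OHCs of E14 and E16, so that it bears on the gate at P1 and P7 only. At E14 the gate returned 7 and 14 OHCs and only 5 of the 13 OHC genes had a UMI in them, while 5 of the 8 IHC genes were at 0 in the gated IHCs, so neither class was clearly identified there and E14 enters no test. Median depth was 2478 to 2750 UMIs per cell at E16, 3831.5 to 5647.5 at P1 and 4510 to 4849.5 at P7. No pair of libraries shared more than 0.958% of the barcodes of the smaller one. Whether a library stood apart as a whole was not tested.

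Fam19a3 and Ppm1j were both near 0 in OHCs. They are neighbours on chromosome 3 (GRCm38, the build of the deposited files), Fam19a3 on the minus strand from 104767406 to 104781840 and Ppm1j on the plus strand from 104781056 to 104786018, so that the annotated genes overlap by 785 bp at their 5′ ends. Their promoter windows from RefSeq (GRCm38.p6, 250 bases before to 50 after the start) are shown because this pair of adjacent genes shared a pattern. The RefSeq start sites are 3509 bp apart, and the Fam19a3 window, listed under its newer symbol Tafa3, lies inside the annotated gene at chr3:104777498-104777797 on the minus strand. The Ppm1j window is chr3:104780806-104781105 on the plus strand. Capitals mark matches to 2 forms of the E-box, a motif that basic helix-loop-helix factors such as Atoh1 can bind. The first form searched was CAGCTG, which is its own reverse complement. The second was CAGATG, which reads CATCTG on the other strand.
Fam19a3: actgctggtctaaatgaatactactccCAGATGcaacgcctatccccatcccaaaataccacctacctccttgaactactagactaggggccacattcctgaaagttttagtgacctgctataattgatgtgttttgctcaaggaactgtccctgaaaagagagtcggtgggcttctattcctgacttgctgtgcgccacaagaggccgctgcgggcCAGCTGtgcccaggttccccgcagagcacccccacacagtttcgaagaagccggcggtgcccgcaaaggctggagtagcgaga
Ppm1j: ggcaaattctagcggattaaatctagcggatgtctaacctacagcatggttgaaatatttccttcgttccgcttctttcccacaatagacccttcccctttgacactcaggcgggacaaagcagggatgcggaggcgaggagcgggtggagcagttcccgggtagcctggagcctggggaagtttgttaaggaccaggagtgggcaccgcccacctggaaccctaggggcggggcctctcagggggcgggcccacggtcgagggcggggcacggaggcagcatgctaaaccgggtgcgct

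The Fam19a3 window held 1 match to each motif, starting 223 and 33 bases before its start site, and the Ppm1j window held none. Of 32851 promoter windows of the same length, 16.3% held CAGCTG and 17.2% held CAGATG on either strand, so single matches are common. Windows were at hand for 6 of the 8 genes. Draxin had 1 match (CAGCTG, 132 bases before the start), Dlk2 had 1 in the first of its 2 windows (CAGATG, 213 bases before), Ormdl3 had 2 (248 and 207 bases before) and Heg1 had none. A match is a run of letters and was not tested as a binding site.

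Fam19a3 was at 73.5, 101 and 64.7 CPM in IHCs of the 3 E16 libraries and at 7.99, 0 and 0 CPM in OHCs. At P1 it was at 248.5, 212, 216 and 119 CPM in IHCs and at 0, 1.76, 1.37 and 1.51 CPM in OHCs. The groups did not overlap at either age, and every P1 library gave a higher IHC level than every E16 library. The ratio of the mean levels at P1 was 171. In the P7 libraries Fam19a3 was at 147 and 187 CPM in IHCs with no UMI in OHCs, which put the IHC level at least 7.57-fold higher when set against the level of 3 UMIs over all gated OHCs. With the larger marker list gate the 2 P7 libraries gave 137 and 177 CPM in IHCs and 0.958 and 0 CPM in OHCs, with 94 UMIs in IHCs against 1 in OHCs.

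Ppm1j reached lower levels in IHCs. It was at 0, 41.3 and 13.8 CPM in E16 IHCs, at 109, 100.5, 95.7 and 77.3 CPM in P1 IHCs and at 21.5 and 39.3 CPM in P7 IHCs. In OHCs its highest library was at 2.62 CPM at E16 and 2.0 CPM at P1, and no OHC had a UMI at P7. The ratio of means at P1 was 66.4. The E16 libraries thus lay below all 4 P1 libraries, and replicate 1 of E16, with 29 IHCs, held no Ppm1j UMI. Under the marker list gate the P7 IHC levels were 33.8 and 71.5 CPM and OHCs again had none, at least 23.5-fold lower.

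Over the cells outside the gate as a whole both genes were close to 0. All cells that were not gated and held at most 3 of the 8 hair cell genes are grouped here as other cells, and across the E16, P1 and P7 libraries they were at 0 to 0.678 CPM for Fam19a3 and 0.217 to 1.66 CPM for Ppm1j. An exception among cells outside the gate was the lateral supporting-like class of P7, which held Ppm1j at 22.9 CPM in replicate 4 (9 UMIs in 84 cells) and at 3.34 CPM in replicate 5. In replicate 4 this was no lower than the IHC value of 21.5 CPM, which rests on 1 UMI under the rule gate, and below the 33.8 CPM of the marker list gate. When each P1 cell was thinned to 1500 UMIs, 20.5% of IHCs (95% Clopper-Pearson interval 15.1 to 26.9%) held a Fam19a3 UMI, against 0.222% of OHCs (0.0268 to 0.798%) and 0.0232% of other cells (0.00480 to 0.0679%). Without thinning the shares were 62.1%, 0.665% and 0.155%, at median depths of 7643, 6624 and 4814 UMIs. For Ppm1j the thinned shares were 10.3%, 0.222% and 0.0852% (unthinned 42.6%, 0.886% and 0.287%). Intervals cover counting error only. The intervals of the thinned OHC shares overlapped those of other cells for both genes, but by library the OHC level was above that of other cells in 3 of 4 P1 libraries for each gene, on 0 to 3 UMIs per library, so no difference or likeness between OHCs and other cells is read here. The kit counts 3′ ends, which lie at opposite sides of this gene pair, away from the overlap. Gm43584, a transcript annotated on the strand of Fam19a3 that overlaps its 3′ part by 5865 bp, had a mean of 0.552 CPM in P1 IHCs and 0 at E16 and P7. Rhoc, the next gene after Ppm1j, had the opposite distribution, with a mean of 14.6 CPM in P1 IHCs, 18.0 CPM in OHCs and 95.9 CPM in other cells.

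**Figure D1:**
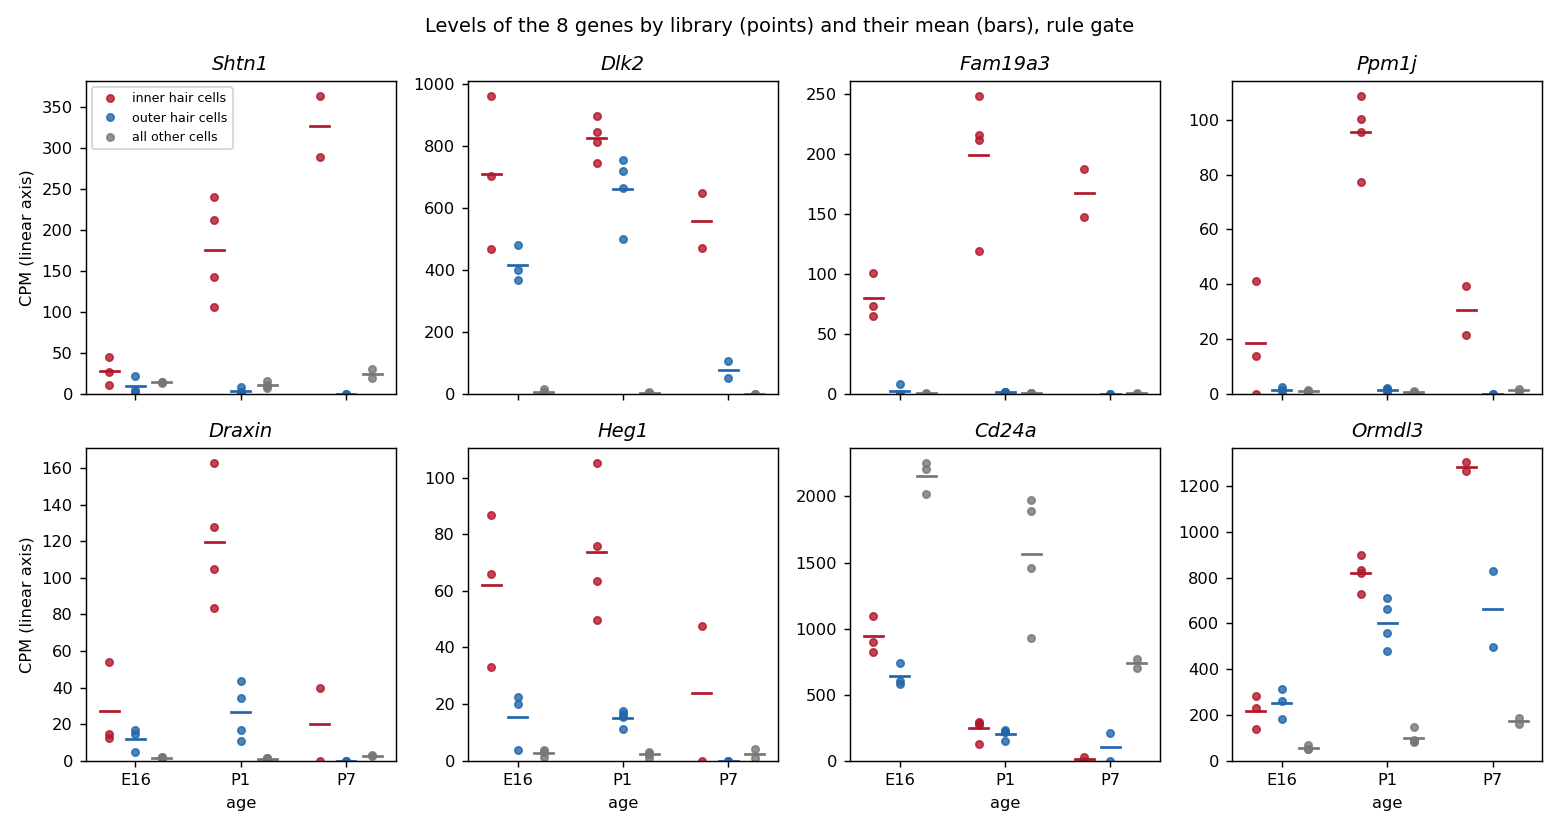
Level of each gene (CPM, linear axis starting at 0) in gated inner hair cells (red), outer hair cells (blue) and all other cells (grey) at E16, P1 and P7; points are libraries and bars their means. Fam19a3 and Ppm1j are near 0 in outer hair cells and over all other cells together, Dlk2 and Ormdl3 are high in both kinds of hair cell, and Cd24a is highest in other cells, at 926 to 1973 CPM at P1.

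Draxin, on chromosome 4 (148098437 to 148130698, minus strand), was shared between the hair cells. It was at 14.4, 54.1 and 12.4 CPM in E16 IHCs and at 14.4, 16.6 and 4.86 CPM in E16 OHCs, where the groups overlapped. At P1 it was at 105, 128, 163 and 83.6 CPM in IHCs and at 11.1, 17.1, 34.2 and 43.5 CPM in OHCs. The 4 IHC values lay above the 4 OHC values, with a ratio of means of 4.53. At P7 the rule gate gave 0 and 39.8 CPM in IHCs, from 4 UMIs, and no UMI in OHCs. The marker list gate gave 2.82 and 11.6 CPM in IHCs and 0 and 1.85 CPM in OHCs, from 5 and 2 UMIs. Other cells stayed at 0.759 to 2.90 CPM throughout. At P7 the IHC level of the larger gate was close to theirs in replicate 4 (2.82 against 2.90 CPM). It was above theirs in replicate 5 (11.6 against 2.50 CPM). In P1 cells thinned to 1500 UMIs, 14.4% of IHCs, 4.87% of OHCs (3.56 to 6.49%) and 0.132% of other cells (0.0767 to 0.211%) held a Draxin UMI (unthinned 47.2%, 14.6% and 0.511%). These shares pool the cells of the 4 libraries, and the intervals cover counting error only. By library, P1 OHCs at 11.1 to 43.5 CPM lay above P1 other cells at 0.759 to 1.56 CPM.

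Among the surface proteins, Dlk2 (chromosome 17, 46297421 to 46303271, plus strand) was high in both hair cells at E16 and P1 and mostly in IHCs at P7. At E16 its level was 961, 466 and 701.5 CPM in IHCs and 367, 480.4 and 399.6 CPM in OHCs, and at P1 844, 896, 812 and 743 CPM in IHCs and 498, 665, 754 and 718 CPM in OHCs. The groups overlapped at both ages, with ratios of means of 1.71 and 1.25, although IHCs were higher in 4 of 4 libraries at P1 and the larger gate separated the P1 groups by a little, with 762 to 921 CPM against 613 to 760 CPM. At P7 IHCs stayed at 470.2 and 646 CPM while OHCs were at 105 and 49.7 CPM, a ratio of 7.23. The marker list gate gave 508 and 554 CPM against 59.4 and 17.1 CPM, a ratio of 13.9. At E14 Dlk2 was at 341 and 268 CPM in the 23 gated IHCs and at 356 and 134 CPM in the gated OHCs, which overlap. Other cells were at 0.236 to 14.3 CPM from E16 to P7.

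Heg1 (chromosome 16, 33684370 to 33771576, plus strand) was low in all classes and kept the same contrast at E16 and P1. It was at 66.0, 86.9 and 33.0 CPM in E16 IHCs against 20.1, 22.7 and 3.91 CPM in OHCs, and at 49.8, 105, 63.5 and 75.9 CPM in P1 IHCs against 16.4, 11.3, 17.4 and 15.4 CPM in OHCs. The groups did not overlap, and the ratios of means were 3.98 and 4.86. At P7 the rule gate held 5 Heg1 UMIs, all in IHCs of replicate 5. The marker list gate gave 25.5 and 39.4 CPM in IHCs and 3.82 and 3.32 CPM in OHCs, a ratio of 9.08. An antisense transcript, Gm15657, overlaps the last 1147 bp of Heg1, and Abcc10 overlaps the last 51 bp of Dlk2 from the other strand. How strand was used in the counting is not given in the sources used here, so reads of such partners may not have been told apart.

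Cd24a (chromosome 10, 43578284 to 43584265, plus strand) was most abundant outside the hair cells. It was at 902, 823 and 1098 CPM in E16 IHCs and at 578, 605 and 743 CPM in E16 OHCs, but other cells were at 2015.5, 2253 and 2204 CPM. At P1 IHCs were at 127, 289, 294 and 268 CPM and OHCs at 219.4, 217, 149 and 237 CPM, which overlap, and other cells at 926, 1973, 1889.6 and 1459 CPM. The IHC mean was 1.47-fold that of OHCs at E16, without overlap, and 1.19-fold at P1, where IHCs were higher in 3 of 4 libraries, and it lay below other cells in all libraries. At P1 replicate 1 was the lowest library for Cd24a in IHCs and also in each of the 7 non-hair classes measured, among them KO-like cells at 1142.5 CPM against 1533 to 2293 CPM. At P7 Cd24a was at 0 and 30.8 CPM in IHCs, 207.5 and 0 CPM in OHCs, and 773 and 702 CPM in other cells. The marker list gate put IHCs at 35.1 and 43.3 CPM and OHCs at 54.2 and 20.5 CPM, again overlapping.

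Shtn1 (chromosome 19, 58973356 to 59076100, minus strand) did not overlap between the hair cells at P1 and P7. At E16 it was at 11, 44.4 and 26.5 CPM in IHCs, at 21.7, 1.79 and 4.32 CPM in OHCs and at 14.3, 14.4 and 12.6 CPM in other cells, so that IHCs overlapped both. Under the marker list gate the E16 levels were 12.3, 44.4 and 28.3 CPM in IHCs and 11.6, 0 and 0 CPM in OHCs, which did not overlap. They rest on 16 and 2 UMIs, of which replicate 2 held 11 in IHCs and replicate 1 held the 2 in OHCs. In replicate 1 the classes were close, at 12.3 and 11.6 CPM. At P1 it was at 213, 240.0, 142 and 106 CPM in IHCs and at 8.27, 0, 1.61 and 1.68 CPM in OHCs, a ratio of 60.7. At P7 it was at 289 and 364 CPM in IHCs with no UMI in OHCs (at least 14.8-fold), and the marker list gate gave 212 and 262 CPM against 8.18 and 4.55 CPM, a ratio of 37.2. Other cells were at 6.86 to 16.0 CPM at P1, and 3 of the 4 OHC libraries lay below that range. In thinned P1 cells a Shtn1 UMI was held by 20.0% of IHCs, 0.665% of OHCs (0.244 to 1.44%) and 1.58% of other cells (1.37 to 1.81%), and the unthinned shares were 55.9%, 2.21% and 4.62%.

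Ormdl3 (chromosome 11, 98581256 to 98587368, minus strand) was found in both hair cells, with a ratio of IHCs to OHCs that was higher at each later age from E16 to P7. At E16 it was at 139, 232 and 282 CPM in IHCs and 259, 181 and 313.5 CPM in OHCs, with the OHC mean slightly the higher (ratio of IHCs to OHCs 0.866) and the groups overlapping. At P1 it was at 832, 898, 729.7 and 820.4 CPM in IHCs and 479.6, 712.5, 559 and 662 CPM in OHCs, without overlap and with a ratio of 1.36. At P7 IHCs were at 1264 and 1302 CPM and OHCs at 830.5 and 497 CPM, a ratio of 1.93, or 3.37 by the marker list gate (1296 and 1199 CPM against 456.5 and 283 CPM). Other cells also carried it, at 50.9 to 68.5 CPM at E16 and 158 and 185 CPM at P7, and 14.6% of thinned P1 other cells held a UMI against 69.2% of IHCs and 55.4% of OHCs (unthinned 35.8%, 93.3% and 91.0%). Over the 8 genes, IHCs and OHCs did not overlap for 3 at E16 (Fam19a3, Heg1 and Cd24a), 6 at P1 (Shtn1, Fam19a3, Ppm1j, Draxin, Heg1 and Ormdl3) and 5 at P7 (Shtn1, Dlk2, Fam19a3, Ppm1j and Ormdl3), all higher in IHCs. Of all genes whose mean reached 10 CPM, 7.05%, 3.25% and 16.7% likewise did not overlap and were higher in IHCs at these ages. Under the marker list gate the counts were 4, 7 and 7 of the 8, beside 6.79%, 3.47% and 22.8% of all genes. Nothing is read from the counts because the list was chosen on this difference.

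To place the genes in the rest of the epithelium, cells outside the gate were scored on marker lists, and a class was kept where its leading genes bore out the list. These classes are called here by their markers (inner phalangeal-like, KO-like and so on). They are ranges of a score rather than clean types, and 906 of the 1184 KO-like cells at P1 and 168 of the 219 at P7 lay near a limit of the score. At P1 IHCs ranked first of 9 classes for 7 of the 8 genes. OHCs ranked second for Dlk2, Fam19a3, Draxin, Heg1 and Ormdl3, after Hensen-like cells for Ppm1j, which were at 3.98 ± 2.94 CPM (SD, n = 4), and last for Shtn1. The OHC levels of Fam19a3 (1.16 ± 0.790 CPM) and Ppm1j (1.44 ± 0.549 CPM) did not differ beyond their spread from those of Hensen-like and lateral supporting-like cells next to them in the order.

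For Cd24a the order was reversed. The highest classes at E16 were KO-like cells at 2822 ± 139 CPM (SD, n = 3) and Claudius or outer sulcus-like cells at 2238 ± 335 CPM, and IHCs at 941 ± 141 CPM and OHCs at 642 ± 88.5 CPM closed the order. At P1 Hensen-like (1825 ± 541 CPM), KO-like (1794 ± 552 CPM) and Claudius or outer sulcus-like cells (1753 ± 507 CPM) led without differing beyond their spread, and the hair cells were again last, at 245 ± 79.3 and 206 ± 38.7 CPM. At P7 glia-like cells, at 59.3 and 47.4 CPM, were at the low end with the hair cells, below the other classes, which were at 548 to 807 CPM apart from 1 library of Hensen-like cells at 411 CPM.

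At P7 Shtn1 was second highest in glia-like cells, 44 and 120 cells with Mbp as their leading gene, which held it at 165 and 152 CPM. No comparison with P1 is made, since 55 of the 70 glia-like cells of P1 lay near the limit of the score, against 4 of 164 at P7. The P7 glia-like level was below the 289 and 364 CPM of IHCs and above that of the other classes, whose highest library was Hensen-like replicate 5 at 84.8 CPM. The summed level of 7 glia markers was 95.2 and 115 CPM in the P7 IHCs and 66.8 and 132 CPM in the P7 OHCs, which had no Shtn1 UMI. No other listed gene ranked second in glia-like cells at P7.

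**Figure D2:**
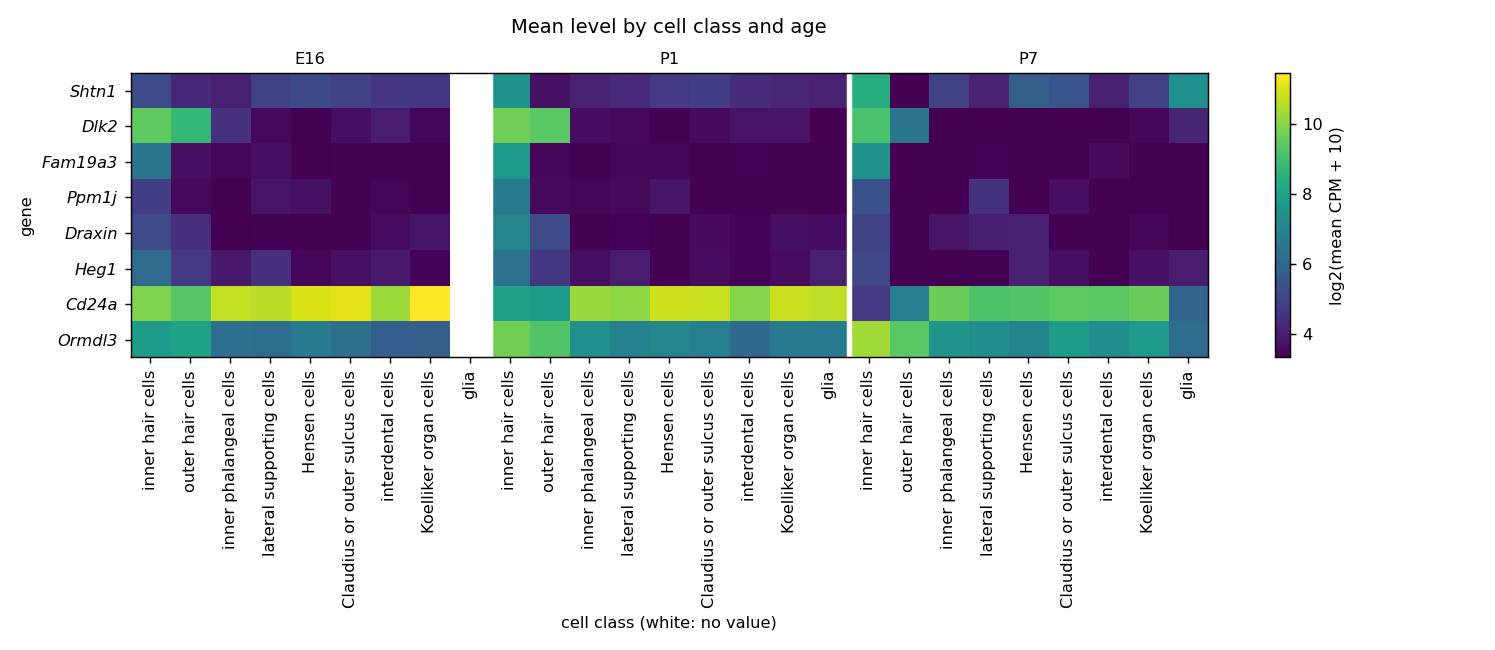
Mean level over libraries of the 8 genes (rows) in the cell classes (columns) at E16, P1 and P7, as log2(mean CPM + 10) by colour; white marks a class that was not kept at that age. Cd24a is bright in all non-hair classes at E16 and P1, Shtn1 has a second bright cell in glia at P7, and Dlk2 fades in outer hair cells at P7.

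The first comparison asked how the genes changed within IHCs between E16 and P1. Shtn1, Ppm1j, Draxin, Ormdl3 and Fam19a3 rose and Cd24a fell, while Dlk2 and Heg1 did not pass the test. The values were compared on log2(CPM + 10) with limma and Benjamini-Hochberg adjustment over the 8995 genes whose mean reached 10 CPM, and such changes understate those of low genes. The 5 of 8 genes that rose stood beside 3.67% of all genes tested and the 1 that fell beside 2.61%, with a median change of 1.56 over the 8 genes and 0.10 over all. The IHCs of P1 were also among the cells on which the list was chosen for high IHC levels, so the count is not independent of that choice.

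Shtn1 rose by 2.35 ± 0.40 (log2, SE, adjusted p = 0.000509, limma), from a mean of 27.3 to 175 CPM. Ppm1j rose by 2.19 ± 0.47 (adjusted p = 0.00487), Draxin by 1.95 ± 0.42 (adjusted p = 0.00514) and Ormdl3 by 1.92 ± 0.27 (adjusted p = 7.33e-05). In all 4 genes each P1 library lay above each E16 library. Fam19a3 rose by 1.19 ± 0.34 (adjusted p = 0.0351), and this call was lost when most of the libraries were left out in turn. Without E16 replicate 1, 2 or 3 or without P1 replicate 1, 2 or 3 its adjusted p was 0.0544 to 0.122, and over all alternatives it ran from 0.00890 to 0.131, although each P1 library was above each E16 library. The rise of Ppm1j was lost only with a pseudocount of 1 CPM in place of 10 (adjusted p = 0.0603). Dlk2 differed by 0.27 ± 0.26 (adjusted p = 0.606) and Heg1 by 0.25 ± 0.40 (adjusted p = 0.774), for which the E16 and P1 libraries overlapped.

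Cd24a fell in IHCs by 1.96 ± 0.30 on the log2 scale (adjusted p = 0.000143), from 941 to 245 CPM. It fell in OHCs too, by 1.61 ± 0.24 (adjusted p = 0.000284), from 642 to 206 CPM. In KO-like cells the difference was -0.70 ± 0.25 and did not pass the test (adjusted p = 0.140). The summed level of 8 KO markers in IHCs was 1233 to 1387 CPM at E16 and 1641 to 3967 CPM at P1. That of 6 inner phalangeal markers was 109 to 592 CPM at E16 and 38.6 to 148 CPM at P1. The part of either marker set in the fall was not tested. With possible doublets left out, the fall in IHCs still passed the test (adjusted p = 0.000569), as it did in every other alternative run.

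In OHCs 5 of the 8 genes reached the filter between E16 and P1, and Shtn1, Fam19a3 and Ppm1j did not. These OHCs were among the cells on which the list was chosen, so the counts that follow are not independent of that choice. Ormdl3 rose by 1.25 ± 0.25 (adjusted p = 0.00282), which is 1 of 5 genes tested beside 8.57% of all 8955 genes that rose, and Cd24a, given above, was the 1 that fell, beside 4.25%. Dlk2 was 0.64 ± 0.23 higher at P1 without passing the test (adjusted p = 0.0736). It passed under the marker list gate (adjusted p = 0.0391), under a stricter gate (adjusted p = 0.0162), with possible doublets left out (adjusted p = 0.0439) and without P1 replicate 1 (adjusted p = 0.0184). Draxin and Heg1 did not pass (adjusted p = 0.227 and 0.917). Whether the changes of the IHCs differ from those of the OHCs was not tested.

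**Figure D3:**
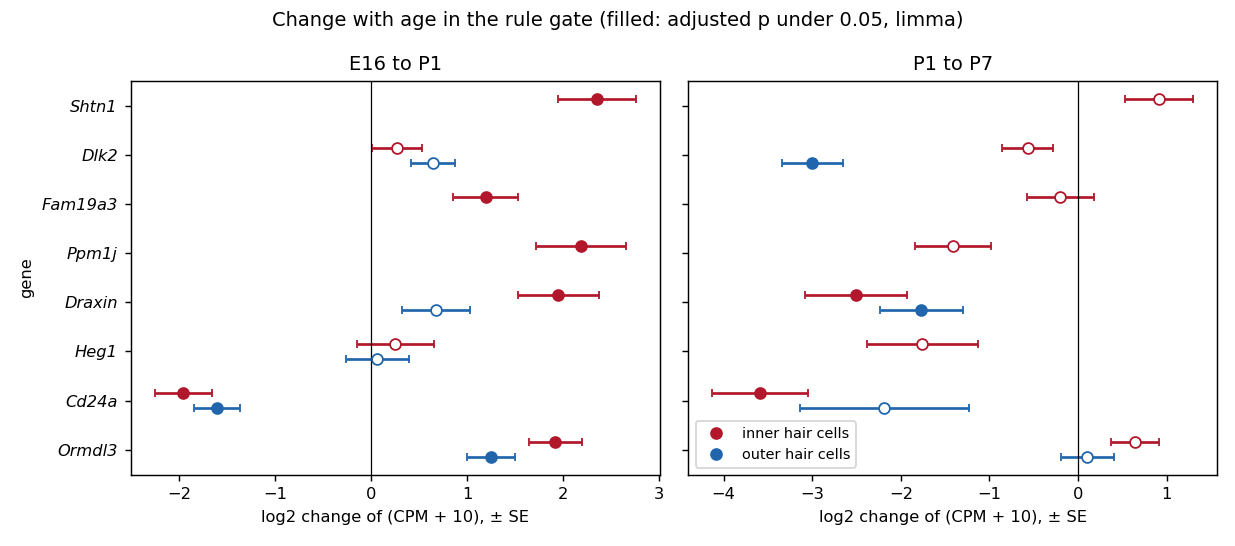
Change of each gene with age, as log2 of (CPM + 10) with its SE, in inner (red) and outer (blue) hair cells from E16 to P1 (left) and from P1 to P7 (right), rule gate; filled points have an adjusted p under 0.05 in limma and genes below the filter have no point. From E16 to P1 Cd24a lies left of 0 in both hair cells and Shtn1, Ppm1j, Draxin and Ormdl3 lie right of it in inner hair cells, and from P1 to P7 the filled points are all to the left.

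From P1 to P7 the rule gate left 6 to 12 cells per library, and on simulated data the fit made too many false calls at that number, so a gene is said to have changed only where both gates called it. In IHCs this held for Cd24a and Draxin, both lower, which is 2 of 8 genes beside 2.05% of the 8391 genes tested by both gates (0.918% were higher). The IHCs of P1 and P7 were among the cells on which the list was chosen, so the count is not independent of that choice. Under the marker list gate Draxin had a P7 mean of 7.23 CPM and reached the filter through P1. Only a fall could be called for it there. Cd24a fell by 3.59 ± 0.54 on the log2 scale (adjusted p = 0.00195) by the rule gate and fell by 2.08 ± 0.41 (adjusted p = 0.00313) by the marker list gate. Draxin fell by 2.50 ± 0.58 (adjusted p = 0.0256) by the rule gate and fell by 2.91 ± 0.41 (adjusted p = 0.000139) by the marker list gate. The rule gate call for Draxin was lost without P1 replicate 1, 2, 3 or 4 or without P7 replicate 4 (adjusted p = 0.0697 to 0.115). Where a P7 library is left out, the P7 group is 1 library, which is assumed to vary like those of P1. Draxin was thus called higher in IHCs to P1 and lower again to P7, with mean levels of 27.0, 120 and 19.9 CPM. Its P7 level rests on 4 UMIs, all in replicate 5. Ppm1j, not called from P1 to P7, had a like course, with means of 18.4, 95.6 and 30.4 CPM. Its P7 libraries lay below all 4 of P1 in both gates.

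The other 6 genes did not pass in P7 IHCs under either gate. Ormdl3 was 0.64 ± 0.27 higher (adjusted p = 0.186, and 0.231 by the marker list gate), with both P7 libraries above all 4 of P1. Shtn1 was 0.92 ± 0.39 higher (adjusted p = 0.188), again with both P7 libraries above those of P1, although under the marker list gate, at 212 and 262 CPM against 101.1 to 240.0 CPM at P1, the groups overlapped. Fam19a3 (-0.20 ± 0.38, adjusted p = 0.805) and Dlk2 (-0.57 ± 0.29, adjusted p = 0.272) did not pass either. Ppm1j was 1.41 ± 0.43 lower (adjusted p = 0.0797) and Heg1 1.76 ± 0.62 lower (adjusted p = 0.121), and both passed when P7 replicate 5 was left out (adjusted p = 0.0239 and 0.0170). That fit has 1 P7 library of 6 cells and takes its spread from the P1 libraries alone, so nothing is read from it.

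From P1 to P7 Dlk2 in OHCs fell by 3.0 ± 0.34 on the log2 scale (adjusted p = 0.00252), from 659 to 77.2 CPM. Under the marker list gate it fell by 4.04 ± 0.33 (adjusted p = 5.97e-07), from 707 to 38.2 CPM. Both P7 libraries lay below all 4 P1 libraries in either gate, and the call held in every alternative run, with adjusted p from 5.97e-07 to 0.0191. Draxin fell by 1.77 ± 0.47 (adjusted p = 0.0413) by the rule gate and fell by 1.71 ± 0.34 (adjusted p = 0.00183) by the marker list gate, and its rule gate call was lost without P1 replicate 2, 3 or 4 (adjusted p = 0.102 to 0.140). These are 2 of 4 genes tested, beside 5.65% of 8449 genes that were lower and 3.94% that were higher by both gates. The OHCs of P1 and P7 were among the cells on which the list was chosen, so the count is not independent of that choice. Draxin held 0 UMIs in P7 OHCs by the rule gate and 2 by the marker list gate. It reached the filter through its P1 level, so only a fall could be called for it. Cd24a was lower in both gates but passed only in the larger one (adjusted p = 0.172 and 0.000840), and the rule gate value passed without P7 replicate 4 (adjusted p = 0.000132), whose 9 OHCs held all 14 Cd24a UMIs of that class. That p rests on 1 P7 library without a Cd24a UMI and on the spread of the P1 libraries alone, and nothing is read from it.

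Ormdl3 in OHCs took opposite signs in the 2 gates. It was 0.11 ± 0.30 higher at P7 by the rule gate (adjusted p = 0.852) and 0.82 ± 0.27 lower by the marker list gate (adjusted p = 0.0375), so no direction is given. The 2 gates also differed in other cell type markers. In P7 OHCs of the rule gate the summed level of 7 Hensen cell markers was 182 and 1199 CPM and that of 12 lateral supporting cell markers 297 and 1602 CPM, against 239.9 and 240.3 CPM and 740 and 1083 CPM in the marker list gate. The part of these transcripts in the Ormdl3 level was not tested.

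**Figure D4:**
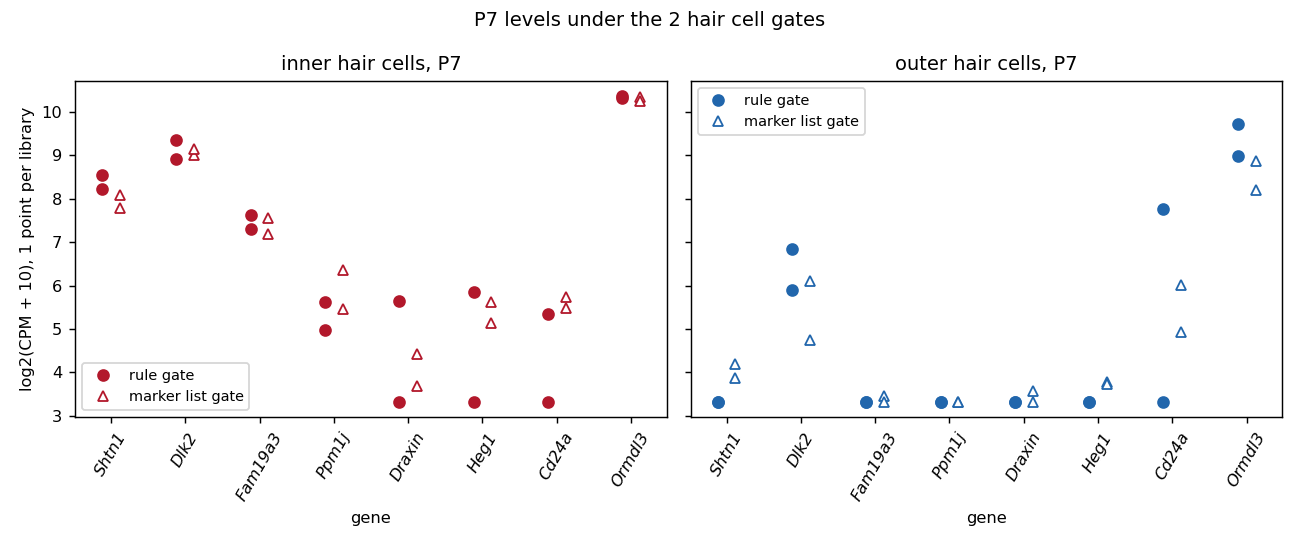
Level of each gene at P7 as log2(CPM + 10), 1 point per library, under the rule gate (filled circles) and the marker list gate (open triangles) in inner (left) and outer (right) hair cells. The inner hair cell levels of Dlk2, Fam19a3 and Ormdl3 lie close together in both gates, and Draxin, Heg1 and Cd24a have a rule gate library without a UMI, at the bottom of the axis.

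The same ages were compared in KO-like cells, which were outside the rule gate and held at most 3 of the 8 hair cell genes. Only Cd24a, Ormdl3 and Shtn1 reached the filter there. None passed from E16 to P1 (limma, 0 of 3 at adjusted p under 0.05, and 2, Cd24a and Ormdl3, at an unadjusted p under 0.05), beside 2.03% of 8436 genes that rose and 2.22% that fell. From P1 to P7 Cd24a fell by 1.17 ± 0.29 on the log2 scale (adjusted p = 0.0187), beside 9.04% of 8156 genes, and Ormdl3 rose by 1.09 ± 0.34 (adjusted p = 0.0460), beside 7.75%. Neither call held without every library. That of Cd24a was lost without P1 replicate 3 or P7 replicate 4 or 5 (adjusted p = 0.0556, 0.180 and 0.161), and that of Ormdl3 without P1 replicate 1, 2 or 3 or P7 replicate 4 or 5 (adjusted p = 0.0704 to 0.340), where leaving out a P7 library again leaves 1.

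Inner phalangeal cells surround the IHCs, pillar cells lie between the IHCs and the first row of OHCs, and Deiters cells lie among the OHCs. The P1 inner phalangeal-like and lateral supporting-like cells thus gave a medial to lateral contrast without hair cells. Only Cd24a and Ormdl3 reached the filter. Ormdl3 was at 117, 174.5, 173 and 180.0 CPM in inner phalangeal-like and at 101, 103, 109.8 and 129 CPM in lateral supporting-like cells, higher in the former in 4 of 4 libraries. The difference of 0.49 ± 0.12 passed with the library as a block (adjusted p = 0.00392), beside 12.4% of 8522 genes called higher, and not without the block (adjusted p = 0.203) or with possible doublets left out (adjusted p = 0.0550). Cd24a differed by 0.20 ± 0.08 in the same direction (adjusted p = 0.0650), and 13.9% of all genes were called lower in inner phalangeal-like cells, none of them a listed gene.

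The 8 genes were set beside 66 genes of their families or pathways, of which 40 were tested in IHCs from E16 to P1. By the rule gate 1 was called higher and 3 lower, beside 3.67% and 2.61% of all genes by that gate, and both gates called the same 1 higher and 2 of the 3 lower, without the Notch ligand gene Jag1 (adjusted p = 0.0450 by the rule gate). Dll4, a Notch ligand, rose by 2.23 ± 0.49 (adjusted p = 0.00622). Notch1, a receptor of that pathway, fell by 2.1 ± 0.46 (adjusted p = 0.00610), and Unc5b, a receptor of the netrins, fell by 2.33 ± 0.47 (adjusted p = 0.00278). Dll4 was called higher and Unc5b lower by both gates in OHCs too from E16 to P1. They were among 2 higher and 2 lower of 41 related genes, beside 8.57% and 4.25% of all genes by the rule gate. From P1 to P7 in IHCs 4 of 38 were lower by both gates, namely the Notch pathway gene Dll3, the Fam19a3 relative Fam19a5, the surface protein gene Ly6h and Kdsr of sphingolipid synthesis, and none was higher, beside 2.05% and 0.918% of all genes. Fam19a5 fell by 2.72 ± 0.55 on the log2 scale (adjusted p = 0.0137). In OHCs 8 of 41 fell over that interval and none rose, beside 5.65% and 3.94% of all genes by both gates. They included 4 of the 7 Notch ligands and receptors tested, Dll1, Dll3, Dll4 and Jag2, in the same cells in which Dlk2 fell. Jag2 fell by 1.94 ± 0.37 (adjusted p = 0.0127), from 207 to 44.6 CPM, and Dll3 by 2.68 ± 0.62 (adjusted p = 0.0257), from 116 to 10.1 CPM. The netrin receptors Unc5a and Unc5b fell as well. The median change was -1.53 over those 7 genes and -0.14 over all genes tested.

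In P1 IHCs against OHCs, 2 of 41 related genes were called higher by both gates, Fam19a5 by 1.03 ± 0.22 (adjusted p = 0.00334) and Ly6h by 0.79 ± 0.09 (adjusted p = 1.61e-06), and 4 were lower, namely Dll3, Unc5b, Ccm2, which encodes a protein of the complex that Heg1 anchors, and Ly6e. By the rule gate alone the counts were 2 higher and 5 lower of 41, the fifth being Sptlc1, a subunit of serine palmitoyltransferase, beside 4.69% and 6.21% of all genes by that gate. Unc5b had the largest of these differences, at -1.57 ± 0.24 (adjusted p = 0.000109), with means of 30.4 CPM in IHCs and 96.3 CPM in OHCs. None of the related PPM phosphatases and no related gene of the ORMDL and serine palmitoyltransferase group was called by both gates. At P7 none of the 34 related genes tested was called in this contrast by the rule gate. Of all 8750 genes only 32 were called higher and 35 lower there, so nothing is read from that count.

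Genes next to the 8 on the chromosome were also read, and Tjap1, which lies 14394 bp from Dlk2 on the other strand, had a like course. Its mean was 296 CPM in IHCs and 217 CPM in OHCs at E16, 601 and 365 CPM at P1 and 442 and 130 CPM at P7, against 31.9 to 40.2 CPM in other cells. It was higher in IHCs than in OHCs at P1 by 0.71 ± 0.09 (limma, adjusted p = 2.25e-05), beside 4.69% of all genes. In OHCs from P1 to P7 it fell by 1.44 ± 0.31 (adjusted p = 0.0208) under the rule gate. Under the marker list gate it fell by 1.59 ± 0.26 (adjusted p = 0.000327), and 5.65% of all genes were lower by both gates. Tjap1 was singled out from the neighbours after its values had been seen, and these p-values do not allow for that choice.

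Likeness of pattern was measured as Pearson's r over 97 points, each a cell class in a library, between a gene and the mean scaled level of the 8. They include 16 points of E14, 4 of them the doubtful IHCs and OHCs of that age. Points of one library share its depth and free RNA, so r is a description. Of the genes that set the gate, Fgf8 had r = 0.854, and they were left out of the order. The genes most like the 8 were then Kcnip3 (r = 0.847), Nefl (0.831), Gm42853 (0.825), Myo3b (0.824), Kif28 (0.821), Stmn3 (0.819) and Otof (0.817), of which Otof encodes the calcium sensor of the IHC synapse and Myo3b a myosin of stereocilia. Within the list, each gene was set against the mean of the other 7. Fam19a3 (r = 0.881), Draxin (0.854), Ppm1j (0.816), Heg1 (0.794) and Dlk2 (0.704) followed the others most closely, then Ormdl3 (0.564) and Shtn1 (0.504). Cd24a ran against them, at r = -0.543. Over the 81 points without E14, an alternative added after the data were seen, Kcnip3 (r = 0.856), Gm42853 (0.853), Kif28 (0.850) and Myo3b (0.848) led the order, while Nefl, Otof and Stmn3 ranked 11, 14 and 18. The listed genes then had r from 0.510 (Shtn1) to 0.888 (Fam19a3), with Cd24a at -0.540.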

How the data were processed

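Single-cell libraries of 11 samples were used as deposited. Per the study's methods, the authors aligned reads and counted UMIs with Cell Ranger 2.1.1 (mm10), and in Seurat 2.0 kept genes seen in at least 10 cells and removed cells by genes, UMIs and mitochondrial and stress shares. The deposited values are on a natural log scale, made by scaling the UMIs of every cell to a sum of 10000 and adding 1 before the log. Whole UMIs were recovered from them (100.0% of values whole within 2%). Libraries held 1602 to 5598 cells at P1 and P7 and 1247 to 3901 at E14 and E16, with medians of 2478 to 5647.5 UMIs per cell. Ages were collected and tabulated separately, so age and collection cannot be told apart.

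From these, CPM was computed in each cell and its mean taken per class and library (5 cells or more), and log2(CPM + 10) was tested with limma 3.58.1 in R 4.3.3 (mean trend, mean of 10 CPM or more, Benjamini-Hochberg adjustment, threshold 0.05). Ages were compared without a block and classes with the library as a block. The fit was tested on simulated data. For hair cells between P1 and P7, it made too many false calls under the rule gate, so calls there needed both gates. Shares of cells were taken after thinning to 1500 UMIs, with 95% Clopper-Pearson intervals. A level of 0 was set at 3 UMIs over the group, which gave lower bounds of fold. Other steps used Python 3.11.15, numpy 2.4.6, pandas 2.3.3, scipy 1.17.1 and matplotlib 3.10.9.

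The 8 genes, their related genes and the marker lists were chosen with earlier results of these data known. Named genes are the 8, the 66 related genes, the gene on either side of each and the 10 genes most alike in pattern. Alternatives were another pseudocount, no filter, pooled UMIs, possible doublets left out, a stricter gate, at least 2 UMIs of Fgf8, only cells of at least 4000 UMIs, each library left out and the replicate block, and the marker list gate, which was chosen after seeing the data. The setting of at least 4000 UMIs was run for the levels of IHCs against OHCs and not for the comparisons of ages. Replicate numbers did not pair the libraries.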

Additional observations from a re-analysis of the deposited data

Results flagged for a closer look

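Cd24a in P1 IHCs had 1 library apart, replicate 1 at 127 CPM with the next at 268 CPM, a gap of 0.8405 of the group's range. Ormdl3 had a library apart in 4 P1 groups. Replicate 4 was the highest in all other cells (147 CPM with the next at 88.9 CPM, a gap of 0.866 of the range), in interdental-like cells (93.7 and 47.8 CPM, 0.956) and in KO-like cells (152 and 75.9 CPM, 0.857). Replicate 1 was the lowest in inner phalangeal-like cells, at 117 CPM with the next at 173 CPM (0.890). A library was read as apart above Dixon's 95% critical value for 4 samples, which chance passes in about 1 of 20 groups, and 34 groups were looked at, of which 5 had a library apart. The groups of other cells share cells and libraries.

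From P1 to P7 under the marker list gate, Ormdl3 was 0.56 higher in IHCs, with both P7 libraries above all 4 of P1, and 0.82 lower in OHCs (log2, -0.82), with both P7 libraries below all 4 of P1. The difference between these changes was not tested.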

How the results depend on the processing

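Counts of all genes called moved with several settings. With a pseudocount of 1 CPM the count for IHCs from E16 to P1 went from 565 to 288 and that for IHCs against OHCs at E16 from 133 to 62. Without the filter it went from 1148 to 662 (OHCs, E16 to P1), 1107 to 517 (OHCs, P1 to P7), 358 to 120 (KO-like cells, E16 to P1) and 981 to 449 (IHCs against OHCs, P1). The marker list gate raised the P1 to P7 counts from 376 to 625 in IHCs and from 1107 to 2243 in OHCs, and that of IHCs against OHCs at P7 from 67 to 1141. It also reversed the sign of Ormdl3 in OHCs from P1 to P7, to -0.82. The cause was not tested.

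Leaving out each library in turn gave 280 to 664 calls for IHCs and 707 to 1405 for OHCs from E16 to P1, 89 to 1978 for IHCs and 253 to 2956 for OHCs from P1 to P7, 96 to 535 and 460 to 1842 for KO-like cells over these intervals, and 88 to 268 at E16 and 556 to 747 at P1 for IHCs against OHCs. The lowest came without P1 replicate 2 in each hair cell comparison of ages and, from P1 to P7, the highest came without P7 replicate 5 (IHCs) or 4 (OHCs), where the lone P7 library is assumed to vary like those of P1. In P7 hair cells the stricter gate left too few cells for a value, and leaving out a library could not be fitted for IHCs against OHCs.

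With the replicate number as a block (replicates 1 to 3 of E16 and P1), 549 genes were called in IHCs, 1008 in OHCs and 316 in KO-like cells, and no call on a listed gene changed. Libraries of the same number did not deviate together (r from -0.148 to 0.0598), so they share only a number. Without the library as a block, the class comparisons fell to 787 (inner phalangeal-like against lateral supporting-like cells, from 2242), 44 (IHCs against OHCs, E16), 198 (P1, from 981) and 6 calls (P7). At P7 each class had 6 to 12 cells per library, so a gene near 20 CPM rests on a few UMIs.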
